A study of Mus musculus with 16 samples.

Results

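Collagen genes encode the subunits of the main fibrous proteins of the extracellular matrix, and the chromatin at 43 of them was examined in mouse pancreatic ductal adenocarcinoma (PDAC) cells growing in the pancreas, the liver or the lungs, with the transcription factor Smad4 silenced or restored. The assay was ATAC-seq, in which the Tn5 transposase cuts accessible DNA, so that the read count of a region (a peak) rises with how open its chromatin is. A peak belonged to a collagen gene where the protein-coding start site nearest to its midpoint, within 100 kb, was that of the gene. By this rule 384 of 136630 nuclear peaks belonged to 42 of the 43 genes. Col26a1 had none, and the peak nearest to it, 24155 bp away, was assigned to another gene. Peaks were assigned to genes by position only and by no measured value, but the genes were listed with earlier results of these data known. Accessibility is not expression, and no RNA was measured in these libraries.

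The tumor cells were KC-shSmad4 lines made from primary pancreatic tumors of mice carrying, among other alleles, Ptf1a-Cre, Rosa26-LSL-rtTA3-IRES-mKate2 and a Col1a1 homing cassette in which a tetracycline-responsive element drives GFP and a short hairpin RNA against Smad4. Doxycycline in the chow thus kept Smad4 off (Smad4OFF), and a switch to regular chow let it return (Smad4ON). Cells of every group carried all of these alleles and were placed in female athymic nude hosts (Foxn1nu), which lack mature T cells, by injection into the pancreas, into the spleen for liver metastases (followed by removal of the spleen) or into the tail vein for lung metastases. Pancreas tumors were grown for 4 weeks before doxycycline was withdrawn, liver metastases for 5 and lung metastases for 6, and restoration lasted 14 days, so organ, route and time of growth differ together and cannot be told apart. Tumor cells were sorted by flow cytometry on the red fluorescent protein mKate2. There were 3 samples each of pancreas OFF, pancreas ON, lung OFF and lung ON and 2 each of liver OFF and liver ON, 16 in all, each from a mouse of its own. Which hairpin or cell line each sample carried was not given in the sources used here.

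Collagen chains wind into triple helices, and the kinds of chain set the shape of the assembly. Fibrillar collagens (types I, II, III, V, XI, XXIV and XXVII) form the banded fibrils that carry tension, and types V and XI sit in the core of fibrils and set their width. Type IV chains form the sheet of the basement membrane, types VIII and X form other networks, and FACIT collagens such as types IX, XII and XIV decorate fibril surfaces. Type VI forms beaded microfibrils around cells, type VII anchors epithelium to the tissue below it, transmembrane collagens such as type XVII belong to epithelial adhesion sites, and multiplexins (types XV and XVIII) lie at the edge of basement membranes. In pancreatic cancer most fibrillar collagen is known to come from stromal fibroblasts under TGFβ signalling, of which Smad4 is a central mediator, while tumor cells also make some collagens of their own.

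Each of the 6 stretches below is shown because a result described later turns on it. They were read from the RefSeq promoter table and the genome of GRCm38.p6, the same build as mm10, on which all coordinates here are given. The Col17a1 promoter (chr19:47691993-47692292, minus strand) lies in the start-site peak with the greatest difference between liver and lungs among collagen start sites. The intergenic stretch upstream of Col6a2 (chr10:76648730-76649029, plus strand, as for the other 4) is the center of the peak most clearly less open in the liver, and the one downstream of Col6a3 (chr1:90754123-90754422) the center of a peak that opened in the liver after Smad4 returned. The Col7a1 upstream stretch (chr9:108949497-108949796) comes from a peak that was nearly closed in the lungs. The Col4a3 stretch (chr1:82586898-82587197) holds its start site, and the Col5a1 stretch (chr2:27939490-27939789) is intronic, both from peaks that lost signal in the pancreas on restoration. Capitals mark exact matches on either strand to the letters searched: AP-1 TGANTCA, RUNX TGTGGT, KLF GGGNGTGG, SMAD CAGACA, FOX TGTTTAC, and ETS AGGAAGTG, where N is any base, besides the HNF1 consensus.
Col17a1 promoter: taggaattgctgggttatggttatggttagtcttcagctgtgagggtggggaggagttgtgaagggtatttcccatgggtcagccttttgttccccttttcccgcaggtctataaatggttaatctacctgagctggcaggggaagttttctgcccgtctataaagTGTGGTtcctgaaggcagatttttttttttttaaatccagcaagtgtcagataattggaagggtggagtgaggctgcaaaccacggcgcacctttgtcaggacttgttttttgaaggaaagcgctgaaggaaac
Col6a2 upstream peak: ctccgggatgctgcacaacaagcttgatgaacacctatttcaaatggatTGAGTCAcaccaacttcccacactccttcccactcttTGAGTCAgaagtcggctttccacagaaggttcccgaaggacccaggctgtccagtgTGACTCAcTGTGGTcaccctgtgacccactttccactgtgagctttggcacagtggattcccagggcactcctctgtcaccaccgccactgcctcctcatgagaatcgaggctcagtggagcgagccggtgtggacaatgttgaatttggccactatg
Col6a3 downstream peak: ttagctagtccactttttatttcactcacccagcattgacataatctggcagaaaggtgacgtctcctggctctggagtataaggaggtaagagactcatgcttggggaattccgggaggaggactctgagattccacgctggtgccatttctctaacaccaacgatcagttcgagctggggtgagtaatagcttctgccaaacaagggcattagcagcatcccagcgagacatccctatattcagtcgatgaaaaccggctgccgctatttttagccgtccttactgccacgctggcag
Col7a1 upstream peak: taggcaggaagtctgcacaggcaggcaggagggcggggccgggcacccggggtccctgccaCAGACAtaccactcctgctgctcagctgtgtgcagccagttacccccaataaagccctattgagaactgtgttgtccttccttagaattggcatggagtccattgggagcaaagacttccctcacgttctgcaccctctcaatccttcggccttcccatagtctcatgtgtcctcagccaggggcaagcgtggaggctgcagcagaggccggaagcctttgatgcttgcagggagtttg
Col4a3 start-site peak: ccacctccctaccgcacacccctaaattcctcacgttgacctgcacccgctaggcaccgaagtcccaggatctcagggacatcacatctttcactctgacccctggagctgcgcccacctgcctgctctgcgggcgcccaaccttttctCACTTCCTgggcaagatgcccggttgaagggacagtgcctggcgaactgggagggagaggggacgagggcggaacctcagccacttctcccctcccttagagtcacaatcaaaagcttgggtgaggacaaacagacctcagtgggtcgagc
Col5a1 intronic peak: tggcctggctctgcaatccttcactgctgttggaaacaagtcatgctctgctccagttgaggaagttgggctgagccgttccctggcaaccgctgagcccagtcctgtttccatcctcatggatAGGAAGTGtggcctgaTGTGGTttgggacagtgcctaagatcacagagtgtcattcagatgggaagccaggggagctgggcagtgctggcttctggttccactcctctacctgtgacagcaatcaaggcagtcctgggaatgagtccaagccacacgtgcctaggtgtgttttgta

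The Col6a2 stretch held 3 AP-1 matches and 1 RUNX match, and the Col6a3 stretch held none of the 7 motifs. Col17a1 had 1 RUNX match, Col7a1 1 SMAD match, Col4a3 1 ETS match on the opposite strand, and Col5a1 adjacent ETS and RUNX matches. Short letter strings are common: in windows of 300 bases the AP-1 letters occurred in 34.1% of all nuclear peaks and 7.81% of 32851 RefSeq promoters, the RUNX letters in 27% and 16.8%, the SMAD letters in 26.1% and 21%, and the ETS letters in 4.08% and 4.07%. Over the 384 collagen peaks the AP-1 share was 37.8%, the SMAD share 32.3%, the RUNX share 25.3%, the KLF share 11.2% (11% of all peaks), the FOX share 3.12% (6.16%) and the HNF1 share 0% (0.116%). A match describes letters only and does not show that a factor bound there.

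The collagen peaks lay mostly inside genes. Introns held 217 of them (56.5%, against 42.2% of all peaks), intergenic DNA 130 (33.9% against 45.6%), promoters 27 (7.03% against 9.76%) and exons 10 (2.60% against 2.38%). Their median width was 601 bp and their median GC content 47.6%, close to 588 bp and 45.8% over all peaks. Col18a1 with 33 peaks, Col15a1 with 30, Col5a1 with 26, Col14a1 with 25 and Col6a3 with 22 held the most. Col11a2, Col9a3, Col19a1, Col20a1, Col6a4, Col6a5, Col6a6, Col13a1 and Col23a1 held 1 each. A start-site peak, with an edge within 1000 bp of a start site of the gene, existed for 25 genes. Col4a1 and Col4a2, and Col4a3 and Col4a4, are neighbours read in opposite directions from a shared start region, so the start-site peaks listed under Col4a1 and Col4a3 also cover the starts of their partners.

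The libraries held between 22994669 and 38218315 reads in peaks. Among markers read at start sites, the summed normalised count of 7 epithelial genes (Krt8, Krt18, Krt19, Krt7, Epcam, Cdh1 and Sox9) was the highest of the 6 lists, from 15844 to 48672 per sample. The 5 of 7 fibroblast or stellate genes with a start-site peak summed to 717 to 1249 in pancreas OFF, 131 to 175 in liver OFF and 151 to 440.0 in lung OFF samples. The hepatocyte genes Alb and Serpina1a and the alveolar genes Sftpc and Sftpa1 had no start-site peak. Of 6 hepatocyte genes 2 had one, and both passed the test as more open in liver metastases, summing to 1009 to 1172 in liver OFF against 383 to 543 in lung OFF and 320.3 to 406 in pancreas OFF samples. The 2 leukocyte start-site peaks summed to 460.3 to 796 in liver OFF against 291 to 419.6 in lung OFF and 222 to 291 in pancreas OFF samples, and 1 of them was called higher. Counted over all their peaks, neither list leaned clearly to the liver. Between liver OFF and lung OFF the hepatocyte genes had 16 higher and 14 lower of 49 peaks. The leukocyte genes had 6 higher and 6 lower of 25, beside 22.9% higher and 26.8% lower over all nuclear peaks. Lung OFF 1 stood apart in the 3 endothelial genes read, at 745 against 55.9 to 185 in the other 15 samples. The main counts of collagen calls between liver and lungs, and named loci that rest on it, are given with and without it. In such bulk samples a lower signal per cell and fewer cells carrying the signal cannot be told apart.

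With Smad4 off, collagen peaks as a set were least open in liver metastases. Between liver and lungs, 148 of 384 collagen peaks were lower in the liver and 40 were higher (130 and 32 without lung OFF 1). Between liver and pancreas 246 were lower in the liver and 44 higher. Between lungs and pancreas 120 were lower in the lungs and 12 higher. A peak was called where the log2 difference in normalised count was at least 0.58 in size with an adjusted p of at most 0.1 (limma, Benjamini-Hochberg over all 136630 peaks). Over all nuclear peaks 49.7% were called between liver and lungs (26.8% lower, 22.9% higher), 58.5% between liver and pancreas (32.3% lower, 26.2% higher) and 17.3% between lungs and pancreas (10.7% lower, 6.59% higher). Organs thus differed at a large share of all peaks, and against that background the collagen peaks lay on the lower side: their median log2 differences were -0.51, -1.55 and -0.31, beside 0.00, -0.05 and 0.03 over all peaks. At the 25 collagen start-site peaks alone, 9 were lower and 4 higher in the liver than in the lungs, with a median of -0.04. That median was smaller in size than the -0.51 over all collagen peaks. It cannot show whether collagen start sites shifted relative to the start sites of all genes. Against the pancreas 14 start sites were lower and 3 higher in the liver (median -0.82), and 6 lower and 0 higher in the lungs (median -0.26). Start sites of all genes were not counted beside them. The 3 comparisons share their groups and are not independent of one another.

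**Figure D1:**
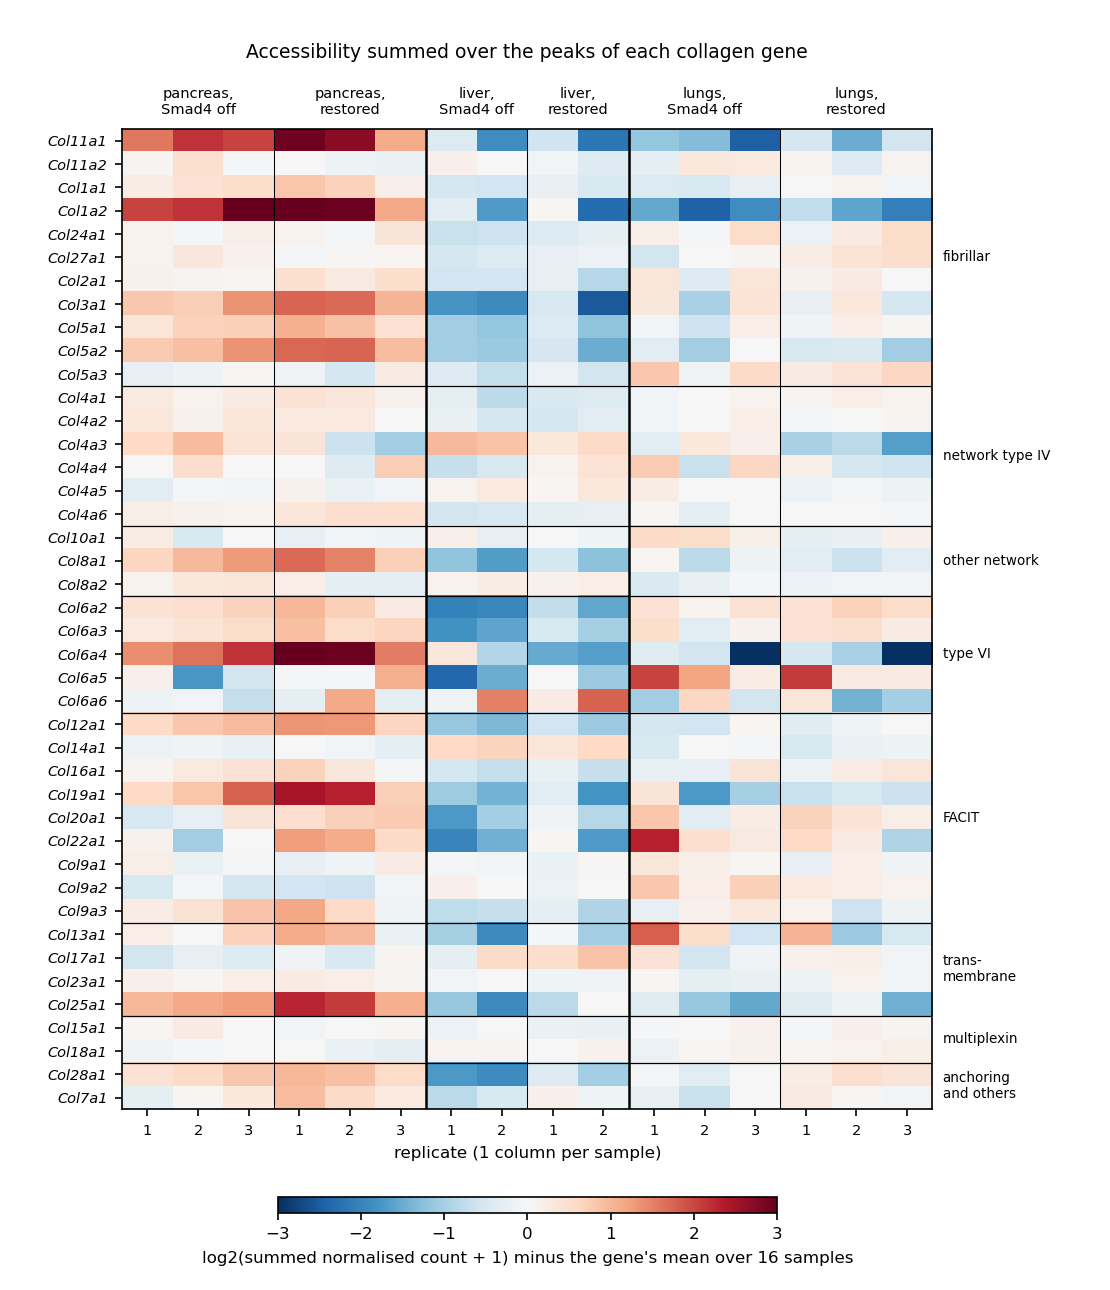
Summed normalised count over the peaks of each of 42 collagen genes in the 16 samples, drawn as log2(count + 1) minus the mean of the gene over samples (colors end at 3 either way), with genes grouped by class and samples by organ and Smad4 state. Liver columns are low for Col6a2, Col6a3, Col28a1, Col3a1 and Col8a1, and pancreas columns are high for Col1a2 and Col11a1.

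Summed over all peaks of a gene, 16 of 42 collagen loci were lower in liver than in lung metastases and 2 were higher (32.2% of 17794 loci were called, 11.8% lower and 20.4% higher). Without lung OFF 1 these counts were 15 lower and 1 higher. Against the pancreas 26 loci were lower in the liver and 1 was higher (36.8% called, 13.0% lower and 23.8% higher), and 11 were lower and 1 higher in the lungs than in the pancreas (5.74% called, 3.21% lower and 2.53% higher). The median over all loci was 0.30 higher in the liver in each of its comparisons, and with trimmed-mean (TMM) scaling that median shifted by -0.29 against the lungs, so the collagen differences are to be read relative to that median. Col14a1 and Col4a3 were the only loci called higher in the liver than in the lungs, at 0.80 and 0.87 log2. The Col4a3 call was lost without lung OFF 1 (0.68, adjusted p = 0.131), where Col14a1 stayed called (0.66, adjusted p = 0.00086), and with TMM scaling 25 loci were called lower and 0 higher, with quantile normalisation 18 and 0.

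The peaks of a gene mostly fell into a few arrangements over the organs. In 108 peaks the liver alone was low, meaning lower than both other organs with no call between those. In 87 the pancreas alone was high, in 25 the order ran pancreas, lungs, liver with every step called, in 28 the liver alone was high, and 73 carried no call. The liver-low peaks included 10 of 10 at Col6a2, 12 of 22 at Col6a3, 12 of 26 at Col5a1, 8 of 15 at Col3a1 and 8 of 15 at Col24a1. The pancreas-high peaks included 12 of 14 at Col1a2, 6 of 7 at Col11a1, 10 of 20 at Col8a1 and 7 of 14 at Col1a1. Liver-high peaks were found at several genes, among them 5 of 13 at Col17a1, 5 of 30 at Col15a1 and 5 of 33 at Col18a1. The same arrangements were not counted over all nuclear peaks. These counts therefore do not show whether any arrangement is particular to collagen genes.

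**Figure D2:**
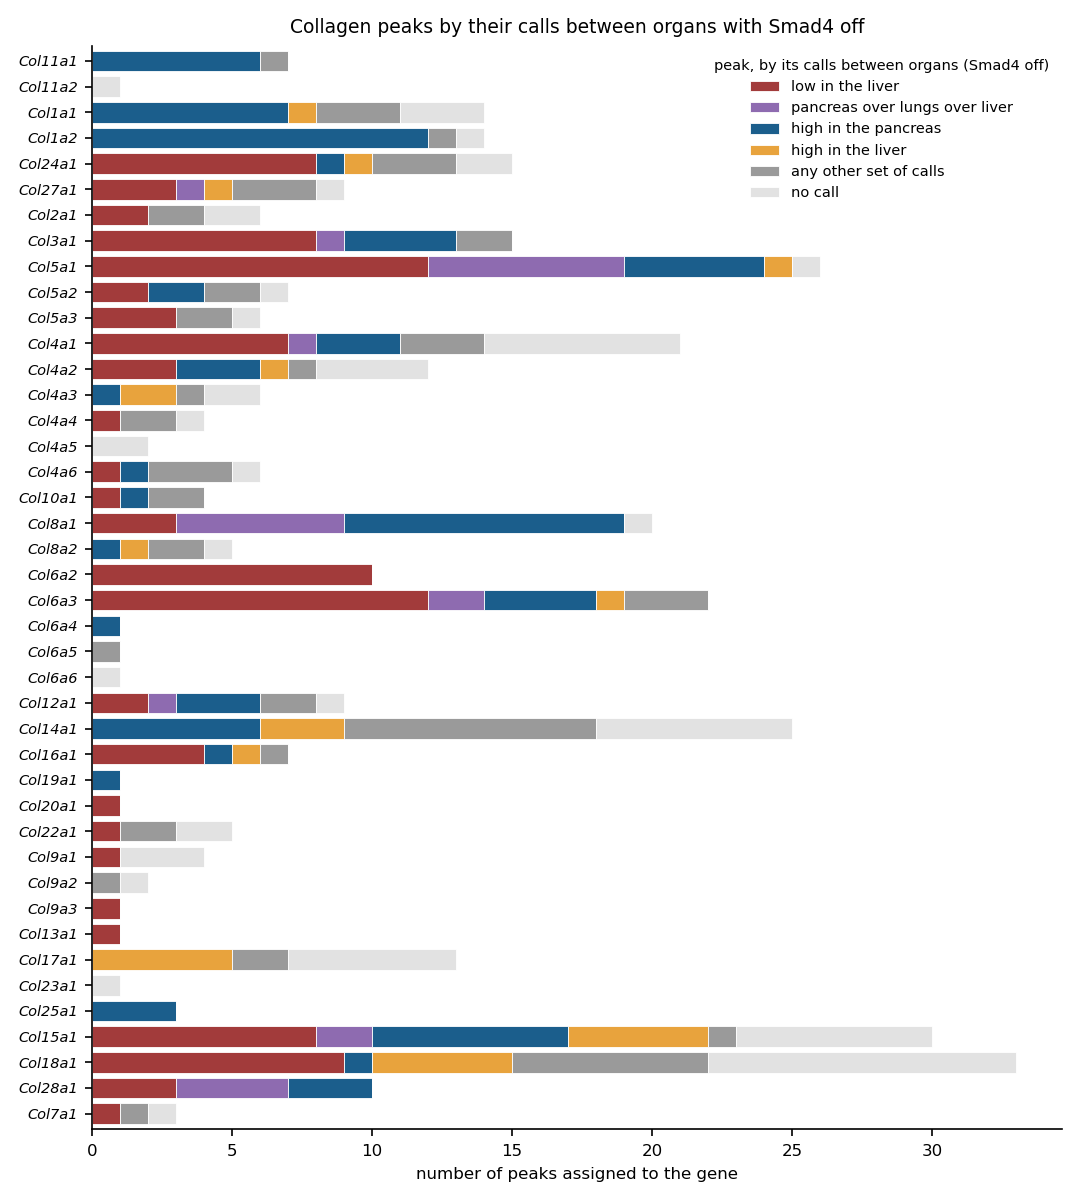
Horizontal bars give the number of peaks assigned to each of the 42 genes, split by their arrangement over the organs with Smad4 off. Bars of Col6a2 hold only liver-low peaks (10 of 10), those of Col1a2 mostly pancreas-high peaks (12 of 14), and Col17a1 has 5 liver-high peaks of 13.

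The AP-1 letters were found in 54 of the 108 liver-low windows (50%), 28 of the 87 pancreas-high windows (32.2%) and 3 of the 28 liver-high windows (10.7%). The SMAD letters were found in 39.8%, 39.1% and 32.1% of the same sets and in 17.8% of the 73 peaks without a call. These shares are counts of letters in peaks grouped by their own values and carry no test. Peaks of other genes grouped in the same way were not searched.

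Type VI collagen, the beaded filament around cells, showed the clearest liver deficit at the genes read, Col6a2 to Col6a6. Of the 35 peaks of these genes, 27 were lower and 2 higher in liver than in lung metastases (median -2.24 log2), 30 were lower than in the pancreas, and 8 were lower in the lungs than in the pancreas. Over all nuclear peaks the lower shares were 26.8%, 32.3% and 10.7%, in the same order. Col6a1, which encodes the α1 chain, was not among the 43 genes examined. The summed count of Col6a2, which encodes the α2 chain, was 4273, 4479.9 and 5043 in the pancreas, 765 and 803 in the liver and 4229.6, 3355 and 4344 in the lungs with Smad4 off. The liver samples lay far below all others, and lungs and pancreas overlapped. The difference was -2.33 ± 0.22, adjusted p = 2.8e-05 against the lungs and -2.55 ± 0.22 against the pancreas, while lungs and pancreas differed by -0.22 ± 0.20, adjusted p = 0.58. Here and throughout, ± with a log2 difference is the standard error of the fit, with n of 2 liver samples and 3 of each other group.

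The start-site peak of Col6a2 (chr10:76622823-76623839) held 502, 529 and 569 in the pancreas, 133 and 98.9 in the liver and 476, 397 and 467 in the lungs. Both liver values were well below the lowest lung value, a difference of -1.95 ± 0.27, adjusted p = 8.1e-05. The upstream peak whose center is printed above (chr10:76648368-76649393, 25250 bp from the start site) held 596, 591 and 582 in the pancreas, 87.6 and 141 in the liver and 718, 559 and 731 in the lungs. It had the smallest p of any collagen peak between liver and lungs (-2.57 ± 0.21, adjusted p = 6.4e-06), followed within the same intergenic stretch by chr10:76653039-76654303 (-2.50 ± 0.21).

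Col6a3, the large α3 chain, was lower in the liver at 16 of its 22 peaks and higher at 2. Its summed count ranged over 3246 to 3864 in the pancreas, 743 to 882 in the liver and 2104 to 3824 in the lungs (-1.82 ± 0.21 for liver against lungs). A peak 89679 bp downstream of the start site (chr1:90753770-90754777), beyond the end of the gene and printed above, held 375, 404 and 388 in the pancreas, 98.7 and 89.2 in the liver and 344, 318 and 339 in the lungs. The groups of liver and lungs were far apart there, with a difference of -1.82 ± 0.16, adjusted p = 9.1e-06. The start site of Col6a3 (chr1:90843759-90844331) followed another order. It held 107, 155 and 262 in the pancreas, 24.7 and 9.75 in the liver and 7.36, 5.43 and 6.03 in the lungs, so that the pancreas was high and the lungs lowest (-4.50 ± 0.49, adjusted p = 0.00023 for lungs against pancreas). The distant peaks and the start of 1 gene therefore ranked the lungs differently.

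The minor α chains Col6a4, Col6a5 and Col6a6 had 1 peak each at low counts. The Col6a5 peak held 32.5, 8.04 and 19.4 in the pancreas, 4.94 and 9.75 in the liver and 122, 67.4 and 34.5 in the lungs, a liver to lung difference of -3.07 ± 0.70. It remained lower by -2.62 (adjusted p = 0.00848) without lung OFF 1, the sample with raised endothelial markers. Col6a6 was not called in any of the 3 comparisons.

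Fibrillar collagens, the tension-bearing fibers, were highest in the pancreas. Of 120 peaks, 96 were lower in liver than in pancreas tumors and 5 higher (median -2.21), 50 were lower in lungs than in pancreas and 2 higher (median -0.83), and 50 were lower and 8 higher in liver than in lungs (median -0.64). Over all nuclear peaks the lower and higher shares were 32.3% and 26.2%, 10.7% and 6.59%, and 26.8% and 22.9%, in the same order. Col1a2, which encodes the α2 chain of type I collagen, changed most. Its summed count was 1337, 1477 and 2624 in the pancreas, 263 and 100 in the liver and 112, 60.9 and 90.5 in the lungs. Every pancreas sample exceeded every liver and lung sample, by -3.40 ± 0.71, adjusted p = 0.00125 for liver and -4.33 ± 0.64, adjusted p = 0.00521 for lungs, and the 2 metastatic sites overlapped, with no call between them (0.92).

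Its partner Col1a1, the α1 chain, behaved more mildly. The start-site peak (chr11:94935790-94938016) held 1258, 1403 and 1350.2 in the pancreas, 728 and 780.2 in the liver and 986, 909 and 957 in the lungs. The pancreas was highest and the liver lowest with no overlap, although the differences were small: -0.82 ± 0.12, adjusted p = 4.9e-05 for liver against pancreas, and -0.49 ± 0.10 and -0.33 ± 0.12 for lungs against pancreas and liver against lungs, both under the size needed for a call. The start site of Col1a2 (chr6:4505083-4505686) was nearly closed outside the pancreas. It held 48.7, 32.2 and 185 in the pancreas, 11.1 and 5.57 in the liver and 5.52, 3.26 and 5.17 in the lungs, a difference of -2.92 ± 0.72 for the liver and -3.60 ± 0.65 for the lungs. The counts in the metastases were at most 11.1, and pancreas sample 3 stood above its group.

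Col3a1, whose type III fibrils mix with type I, was lower in the liver than in the pancreas at 15 of 15 peaks and lower than in the lungs at 9. Its start-site peak (chr1:45311070-45312087) held 172, 200.1 and 260.2 in the pancreas, 25.9 and 16.7 in the liver and 80.1, 27.2 and 93.9 in the lungs. The order was pancreas, lungs, liver, with lung OFF 2 near the liver values. Liver against pancreas was -3.26 ± 0.71, adjusted p = 0.00125, lungs against pancreas -1.80 ± 0.64, adjusted p = 0.077, and liver against lungs -1.46 ± 0.71 with an adjusted p = 0.101, just short of a call. The call of lungs against pancreas was lost when any pancreas OFF sample or lung OFF 2 was left out (adjusted p from 0.11 to 0.263).

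Among the core-fibril chains, Col5a1 was lower in liver than in lungs at 19 of 26 peaks and higher at 1. Its start-site peak (chr2:27885348-27889725) held 1970.2, 2435 and 2412 in the pancreas, 457 and 396 in the liver and 1630.2, 998 and 1874 in the lungs. The liver samples were apart from both other organs (-1.77 ± 0.28, adjusted p = 0.0002 against the lungs and -2.41 ± 0.28 against the pancreas). At Col5a3 the start-site peak (chr9:20814904-20815302) held 73.4, 88.4 and 100 in the pancreas, 27.2 and 30.7 in the liver and 223, 50.0 and 118 in the lungs. The liver was again lowest (-1.89 ± 0.50, adjusted p = 0.00594), and lung OFF 1 was the highest sample. Without it the difference at this peak was -1.38 (adjusted p = 0.0268). The summed Col5a3 locus differed by -0.98 between liver and lungs, and by -0.79 (adjusted p = 0.0143) without that sample.

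Col11a1, the α1 chain of type XI collagen, resembled Col1a2. Its summed count was 311, 469 and 429 in the pancreas, 77.8 and 27.9 in the liver and 46, 41.3 and 18.1 in the lungs, with all pancreas samples above all metastases (-3.06 ± 0.62, adjusted p = 0.00096 for liver and -3.57 ± 0.56, adjusted p = 0.00648 for lungs). The 77 peaks within 2 Mb of Col11a1 that belonged to no collagen also differed, by -1.75 log2 on median between liver and pancreas and -0.84 between lungs and pancreas. Their part in the Col11a1 result was not tested. Surroundings were also lower at Col6a3 (-0.44 on median), Col24a1 (-0.42) and Col25a1 (-0.73) between liver and lungs and at Col3a1 (-0.44) between liver and pancreas, while at Col6a2 they differed by 0.03 between liver and lungs and at Col1a2 by -0.10 between lungs and pancreas.

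The remaining fibrillar genes differed less or in part. Col24a1 was lower in the liver than in the lungs at 10 of 15 peaks and Col27a1 at 4 of 9, with 1 and 2 higher. Col5a2 was lower in the liver than in the pancreas at 6 of 7 peaks, and Col2a1, the cartilage collagen, at 3 of 6. The single peak of Col11a2, at its start site (chr17:34038553-34041354), held 240.0, 318 and 219 in the pancreas, 253 and 228 in the liver and 191, 287 and 279 in the lungs and showed no detectable organ difference (-0.04 ± 0.23 for liver against lungs).

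**Figure D3:**
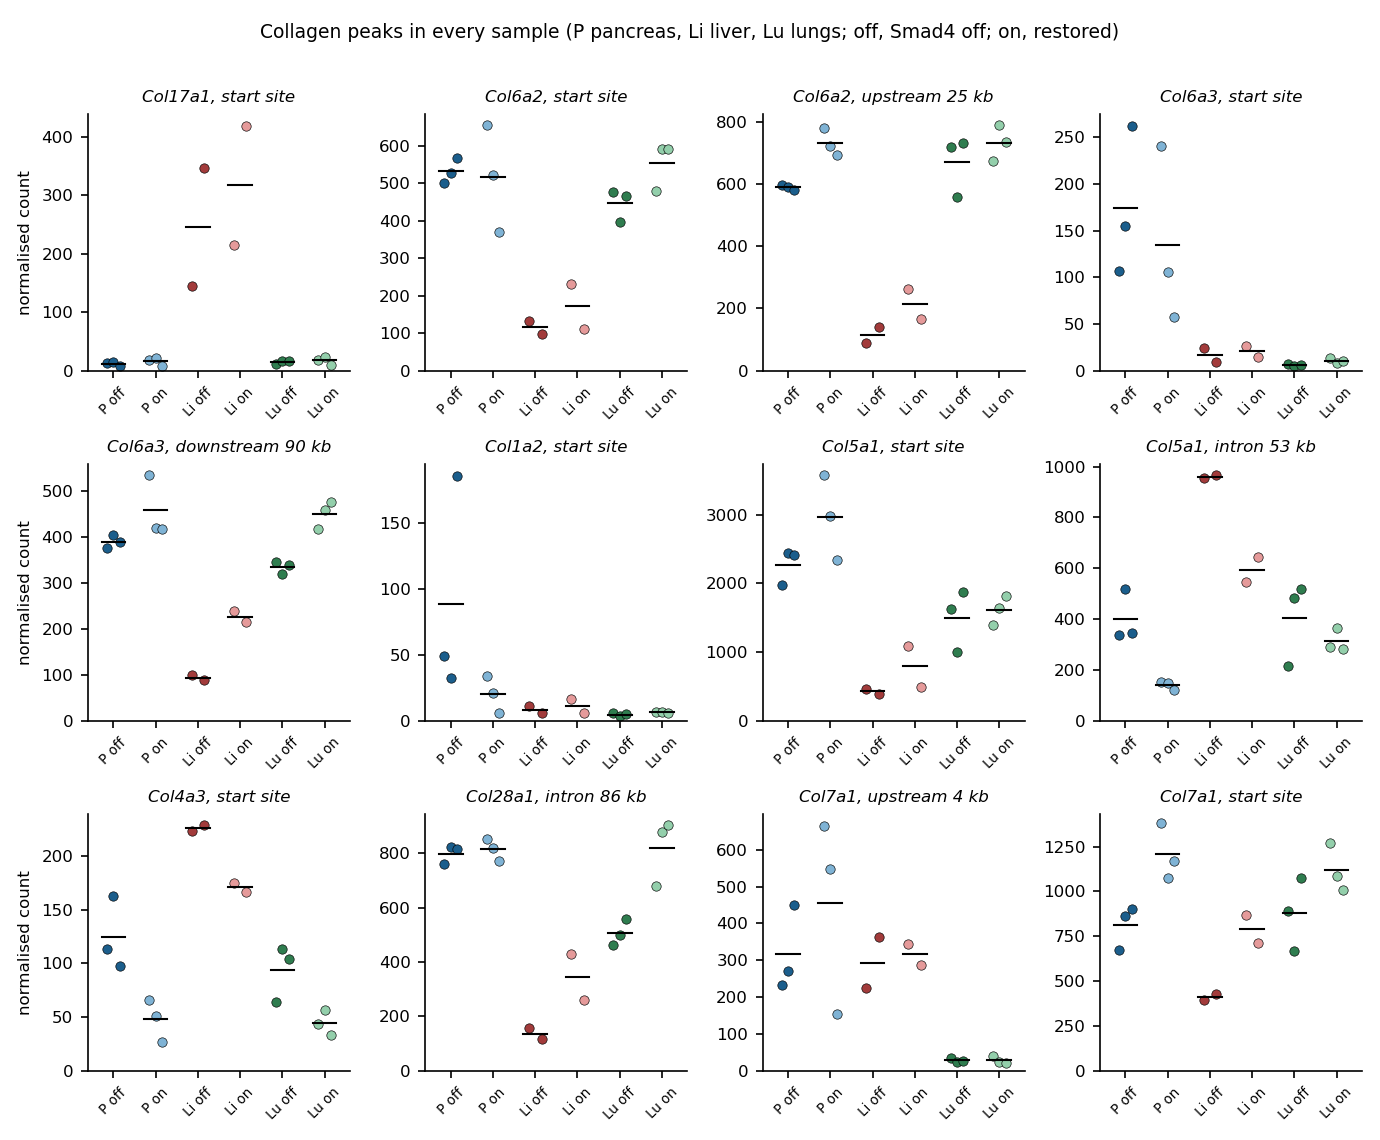
Normalised count, on linear axes from 0, of 12 collagen peaks in each of the 16 samples, with 1 point for each sample, organs in color, Smad4 OFF dark and ON light, and lines at group means. The Col17a1 start site is high in the 4 liver samples, the Col6a2 peaks are low in them, and the Col1a2 start site is highest in pancreas OFF.

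Of the transmembrane collagens, Col17a1 ran the other way. This hemidesmosome collagen of epithelial cells had the greatest start-site difference between liver and lungs. That peak (chr19:47691392-47692518), part of whose promoter is printed above, held 12.8, 15.2 and 8.33 in the pancreas, 146 and 347 in the liver and 12, 16.3 and 17.2 in the lungs. Liver samples were far above every other sample (3.82 ± 0.50, adjusted p = 6e-05 against the lungs and 4.14 ± 0.50 against the pancreas), and lungs and pancreas overlapped.

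At Col17a1 4 further peaks were higher in the liver than in both other organs. An upstream peak at chr19:47705263-47705763 held 9.39, 5.36 and 8.33 in the pancreas, 72.8 and 142 in the liver and 7.36, 14.1 and 2.58 in the lungs (3.74 ± 0.57 against the lungs), and its neighbour chr19:47707893-47708286 differed by 3.66 ± 0.67. Other peaks of the gene did not follow, and the summed locus was not called between liver and lungs (0.22 ± 0.27). Summed epithelial marker counts at start sites were also higher in the liver, 48532 to 48672 against 22361 to 32326 in the lungs and 20828 to 23807 in the pancreas, and their part in the Col17a1 result was not tested. Col13a1 had 1 peak, at 15.4, 13.4 and 22.2 in the pancreas, 6.17 and 2.79 in the liver and 48.8, 19.6 and 8.62 in the lungs. It was lower in the liver than in the lungs (-2.04 ± 0.72), but the call was lost without lung OFF 1 (-1.43, adjusted p = 0.101). Col25a1 was lower in the liver and the lungs than in the pancreas at all 3 of its peaks, and the start site of Col23a1 (chr11:51289379-51290497) was not called, with differences of 0.12, -0.18 and -0.30.

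Basement membrane collagen IV chains differed among themselves. The major chains Col4a1 and Col4a2 were lower in the liver than in the pancreas at 13 of 21 and 6 of 12 peaks, with summed differences of -0.75 ± 0.12 and -0.63 ± 0.12. Their shared start region (chr8:11311291-11314917) did not follow. It held 1187, 948 and 899 in the pancreas, 1155 and 679.9 in the liver and 839, 1001 and 890.0 in the lungs and had the smallest liver to lung difference of all collagen start sites (-0.03 ± 0.18). The chain of the mature kidney and lung basement membrane, Col4a3, was higher in the liver. Its start-site peak (chr1:82586603-82587494) held 114, 163 and 97.2 in the pancreas, 223 and 228 in the liver and 64.4, 113 and 104 in the lungs. Liver samples lay above all lung and pancreas samples (1.30 ± 0.36, adjusted p = 0.00839 against the lungs), and lungs and pancreas overlapped. This peak also spans the start of Col4a4, which lies on the opposite strand. The 4 peaks assigned to Col4a4 held 1 lower and 0 higher between liver and lungs, with a median of -0.49. The X-linked Col4a5 and Col4a6 showed no call and 2 calls, respectively, of 2 and 6 peaks between liver and lungs.

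Of the other network formers, Col8a1 was strongest. It encodes the short-chain type VIII collagen of vessel walls and was lower in the lungs than in the pancreas at 16 of 20 peaks and in the liver at 19. Its start-site peak (chr16:57753815-57756009) held 483, 620.0 and 671 in the pancreas, 117 and 78 in the liver and 309, 211 and 341 in the lungs. The organs formed 3 separate steps, with -1.55 ± 0.31, adjusted p = 0.00097 for liver against lungs, -2.60 ± 0.31 for liver against pancreas and -1.06 ± 0.28 for lungs against pancreas. Col8a2 and Col10a1, the collagen of hypertrophic cartilage, had 5 and 4 peaks with calls in both directions.

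FACIT collagens were mixed. Of 55 peaks, 13 were lower and 8 higher in the liver than in the lungs (median -0.23, which became 0.07 under quantile normalisation). Over all nuclear peaks 26.8% were lower and 22.9% higher. Col12a1, which bridges type I fibrils, was lower in the liver than in the pancreas at 8 of 9 peaks (-2.03 ± 0.23 for the sum). Col14a1, a relative with a similar place on fibrils, was the exception. Its summed count was 3184, 3286 and 3096 in the pancreas, 5455 and 5711 in the liver and 2627, 3541 and 3521 in the lungs, above both other organs in the liver (0.80 ± 0.14, adjusted p = 0.00034 against the lungs and 0.81 ± 0.14 against the pancreas). The median over all loci was itself 0.30 higher in the liver than in the lungs. With TMM scaling or quantile normalisation the Col14a1 locus was not called between liver and lungs. A peak 27369 bp upstream (chr15:55279473-55281289) held 242, 277 and 224 in the pancreas, 701 and 737 in the liver and 198, 290.2 and 326 in the lungs (1.43 ± 0.22, adjusted p = 0.00015).

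Col22a1, found at tissue junctions, rested on few reads. Its summed count was 109, 48.2 and 101 in the pancreas, 24.7 and 36.2 in the liver and 513, 142 and 121 in the lungs, and the liver was lower than the lungs by -2.75 ± 0.65, adjusted p = 0.00301. Lung OFF 1 was the highest sample, and without it the difference was -2.09 (adjusted p = 0.00738). Col9a2 was the only collagen locus called higher in the lungs than in the pancreas (0.92 ± 0.22, adjusted p = 0.0308).

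Of the multiplexins, whose C-terminal fragments include endostatin, Col15a1 and Col18a1 held 63 peaks with calls in both directions. Between liver and lungs 22 were lower and 10 higher (26.8% and 22.9% over all nuclear peaks). Between liver and pancreas 28 were lower and 15 higher (32.3% and 26.2%). The summed loci of both genes were not called (-0.11 and 0.09 for liver against lungs). Among the anchoring and other genes, Col28a1, which encodes a von Willebrand domain collagen of nerve sheaths, was low in the liver. Its summed count was 2126, 2369 and 2746 in the pancreas, 474 and 425 in the liver and 1519, 1270.4 and 1578 in the lungs, with all groups apart (-1.69 ± 0.18, adjusted p = 3.3e-05 for liver against lungs and -2.42 ± 0.18 for liver against pancreas).

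Col7a1, the anchoring fibril of epithelium, showed opposite calls at neighbouring peaks. Its start-site peak (chr9:108952401-108955586) held 674, 861 and 900.1 in the pancreas, 395 and 426 in the liver and 892, 671 and 1074 in the lungs, lower in the liver than in the lungs by -1.07 ± 0.18. A peak 3939 bp upstream (chr9:108948900-108950395), printed above, held 233, 269.8 and 450.1 in the pancreas, 226 and 362 in the liver and 35, 22.8 and 27.6 in the lungs. There the lungs were nearly closed while liver and pancreas overlapped in part (3.31 ± 0.48, adjusted p = 0.00012 for liver against lungs and -3.40 ± 0.43 for lungs against pancreas).

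Fibroblast markers moved with the pancreas-high collagens. All 5 fibroblast or stellate start-site peaks were lower in the liver than in the pancreas and 4 of 5 lower in the lungs, and of the 59 peaks of these genes 54 were lower in the liver and 35 in the lungs. The summed start-site count in the lungs was 440.0, 151 and 315, below the lowest pancreas value of 717. Between liver and lungs 1 of the 5 start-site peaks and 19 of the 59 peaks were lower in the liver and 4 higher. Endothelial markers were lower in the liver too. Of their 45 peaks 22 were lower and 5 higher in the liver than in the lungs, and 22 lower and 4 higher than in the pancreas. Their summed start-site counts were 72.8 to 73.8 in liver OFF against 129 to 167 in pancreas OFF and 133 to 745 in lung OFF samples (133 and 173 without lung OFF 1). The endothelial peaks were not counted without that sample. Over all nuclear peaks the liver was lower at 26.8% and higher at 22.9% against the lungs, and lower at 32.3% and higher at 26.2% against the pancreas. The lungs were lower than the pancreas at 10.7% of all peaks and higher at 6.59%. The part of stromal and endothelial cells in the collagen differences between organs was not tested.

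Genes that modify, process, cross-link or bind collagen were examined as a list of 38, of which 37 had peaks. Of their 262 peaks, 93 were lower and 27 higher in the liver than in the lungs, 136 lower and 38 higher than in the pancreas, and 58 lower and 16 higher in the lungs than in the pancreas. Over all nuclear peaks the lower and higher shares were 26.8% and 22.9%, 32.3% and 26.2%, and 10.7% and 6.59%, in the same order of comparisons. Propeptide processing had 37 lower and 3 higher of 61 peaks between liver and lungs. The other lists leaned less: prolyl and lysyl modification had 24 lower and 14 higher of 82 peaks there. Folding and secretion had 3 lower and 2 higher of 15, and collagen receptors 18 lower and 8 higher of 69. The start site of Adamts14, a procollagen N-proteinase, held 1129.8, 1243 and 1371 in the pancreas, 317 and 239.6 in the liver and 1305, 653 and 968 in the lungs, and the liver was lower than the lungs by -1.76 ± 0.31. Adamts3 (-2.56 ± 0.46) and Pcolce2, an enhancer of C-propeptide cleavage (-1.24 ± 0.17), were lower as well.

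Of 35 peaks at cross-linking oxidases, 11 were lower and 0 higher in the liver than in the lungs (26.8% and 22.9% over all nuclear peaks). In the lungs 13 were lower and 1 higher than in the pancreas (10.7% and 6.59%). The start site of Lox, the lysyl oxidase of fibrillar collagen, held 121, 128 and 222 in the pancreas, 16 and 9.75 in the liver and 48.8, 7.61 and 15.5 in the lungs. Pancreas values stood above both metastatic sites (-3.49 ± 0.92 for liver and -2.99 ± 0.83 for lungs), and Loxl2 was lower in the liver than in the lungs by -1.90 ± 0.44. Among receptors, the start site of Ddr2, a receptor kinase for fibrillar collagen, held 709.7, 804 and 1013 in the pancreas, 205 and 103 in the liver and 639, 399 and 532 in the lungs (-1.81 ± 0.35 for liver against lungs). Its paralog Ddr1, found mainly on epithelium, was not called there (0.19 ± 0.15).

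Among genes of collagen modification and export some start sites were higher. The start site of Mia3, which exports procollagen from the endoplasmic reticulum, was higher in the liver (0.74 ± 0.13 against the lungs), as were Colgalt1, a collagen galactosyltransferase (0.63 ± 0.11), and P4hb, a subunit of prolyl 4-hydroxylase (0.58 ± 0.11). The lysyl hydroxylase Plod2 was lower (-0.77 ± 0.18), and the collagen chaperone Serpinh1 was not called (-0.40 ± 0.16).

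With Smad4 restored, the same comparisons between organs were made in the Smad4ON samples. Between liver and lungs 113 collagen peaks were lower in the liver and 33 higher (35.8% of all peaks called, 18.2% lower and 17.6% higher). Between liver and pancreas 240 were lower and 52 higher (59.4%, 32.2% lower and 27.1% higher), and between lungs and pancreas 142 were lower and 34 higher (27.8%, 14.9% lower and 12.8% higher). Median differences were -0.46, -1.30 and -0.40. The summed Col6a2 locus held 6239, 5166 and 3697 in the pancreas, 1894 and 1068 in the liver and 4312, 5111 and 4595 in the lungs, so the liver was still lowest (-1.71 ± 0.22 against the lungs), and the Col1a2 locus held 3077, 2527 and 724 in the pancreas, 342 and 66 in the liver and 197, 110.2 and 79.3 in the lungs, with the pancreas still above both metastatic sites. The count of 146 calls between liver and lungs fell to 61 without liver ON 2.

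The question of what Smad4 itself does at these loci was addressed by restored against silenced samples within each organ. Few collagen peaks passed the test. In the pancreas 7 were lower and 1 higher after restoration (3.42% of all peaks called, 3.06% lower and 0.364% higher). The split there depended on the fit, at 12 lower and 6 higher with quantile normalisation and with DESeq2, 10 and 9 with a replicate block for the lungs, 10 and 7 without lung OFF 1, and 2 and 0 without pancreas OFF 2. In the liver 7 were higher and 0 lower (0.55%, 0.462% higher and 0.0886% lower), and in the lungs 0 were called, with 26 at an unadjusted p under 0.05 (0.00366% called and 7.11% at that p over all peaks by limma). DESeq2 on recovered reads called 5 in the lungs and edgeR 0. Averaged over the organs, 26 were higher and 9 lower (6.62%, 3.61% higher and 3.0% lower), which became 7 and 7 without liver ON 1.

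Summed by gene, Col4a3 in the pancreas (-1.08) and Col28a1 in the liver (1.10, adjusted p = 0.0979) were the only collagen loci called within an organ (2.12% and 0.0506% of all loci called, and 0.0112% in the lungs), and the same genes were called in the average, at -0.91 and 0.60 (1.5%). When 1 sample was left out at a time, 0 loci were called in the pancreas in 11 of 16 fits and 0 in the liver in 12 of 16. No collagen peak was called for a difference in restoration between organs by limma (0.0% of all peaks called), with 26, 25 and 31 at an unadjusted p under 0.05 for liver against lungs, liver against pancreas and lungs against pancreas (5.25%, 3.95% and 11% of all peaks). DESeq2 called 0, 2 and 1. With a replicate block for the lungs, limma called 7 peaks for lungs minus pancreas, 6 higher and 1 lower. The labels name no pairing of the samples.

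**Figure D4:**
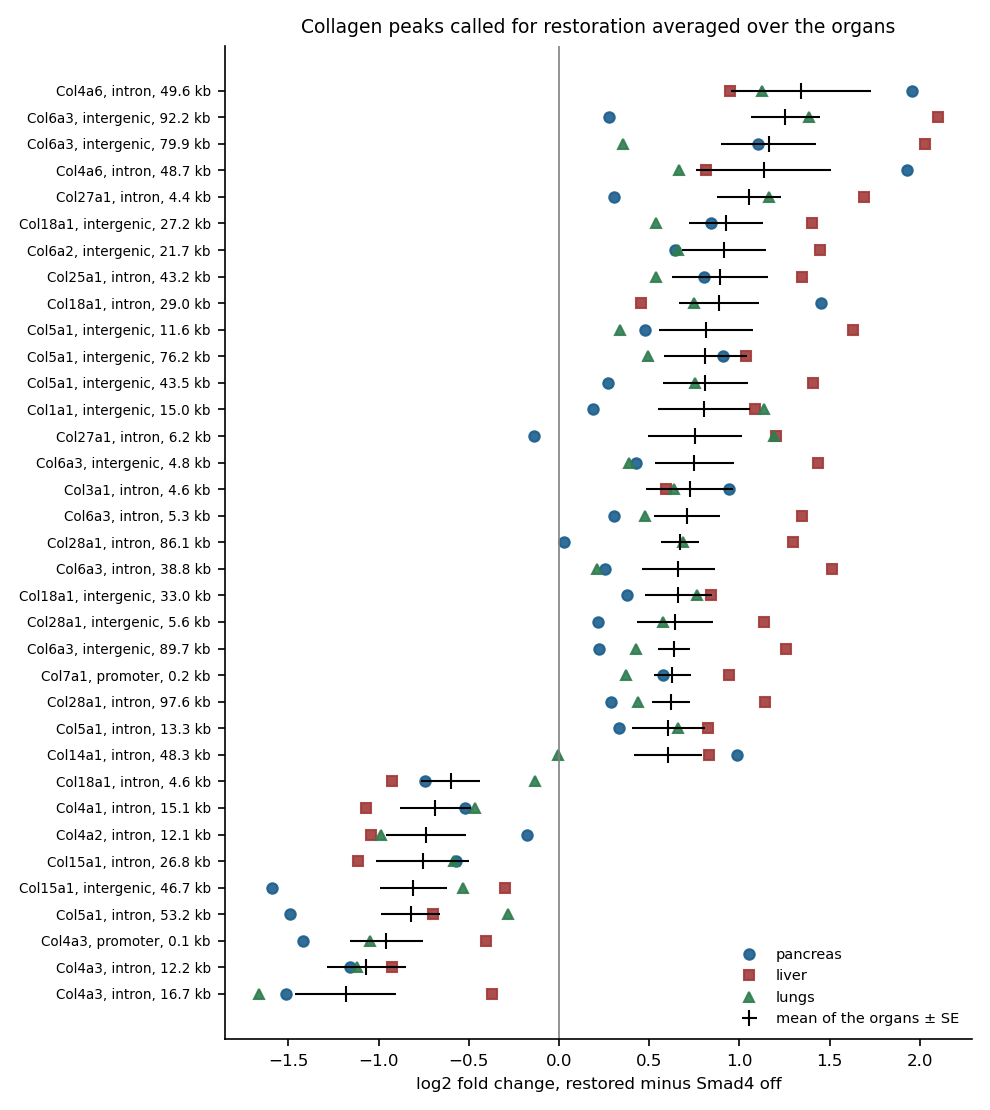
Log2 difference between restored and silenced Smad4 in each organ for the 35 collagen peaks called in the average over organs, 26 higher and 9 lower, with 1 row for each peak, symbols for organs, and a tick with its standard error for the average. In 24 of the 26 and in 9 of the 9 the sign was the same in all organs, which the average partly fixes.

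The 4 gains of smallest p in the average were at Col6a3 (2 peaks), Col28a1 and Col7a1. A distal Col6a3 peak (chr1:90751435-90751998) held 7.41 and 5.57 in liver OFF and 40.8 and 23.4 in liver ON samples (2.10 ± 0.37, adjusted p = 0.0435). In the lungs it held 40.5, 30.4 and 31.9 with Smad4 off and 91, 91.1 and 89.6 after restoration, which did not pass the test by itself (1.39 ± 0.31, adjusted p = 0.271), and in the pancreas 52.9, 68.8 and 99.1 against 108, 90.4 and 65.9. Groups did not overlap in liver and lungs and overlapped in the pancreas. The average over organs was 1.25 ± 0.19, adjusted p = 0.00404.

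The neighbouring Col6a3 peak printed above (chr1:90753770-90754777) had the smallest p in the average. It held 98.7 and 89.2 in liver OFF and 239 and 214 in liver ON, 344, 318 and 339 in lung OFF and 417, 459 and 475 in lung ON, and 375, 404 and 388 in pancreas OFF and 535, 419.7 and 418 in pancreas ON. Every restored sample was above every silenced sample of its organ (1.26 ± 0.17, adjusted p = 0.0192 in the liver and 0.64 ± 0.09, adjusted p = 0.00276 on average). Restored liver samples stayed below all lung and pancreas samples. Peaks of other genes within 2 Mb of Col6a3 also differed, by 0.32 on median in the liver, and their part in these gains was not tested. Of 26 averaged gains 6 were at Col6a3 and 1 at Col6a2, and type VI peaks had a median of 0.45 in the average, beside 0.15 over all collagen peaks.

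At Col28a1 an intronic peak (chr6:8105534-8107493) rose from 157 and 117 to 429 and 261 in the liver (1.30 ± 0.21, adjusted p = 0.035), and held 461, 501 and 557 against 681, 879 and 904 in the lungs and 761, 823 and 815 against 852, 818 and 773 in the pancreas. The pancreas samples were open in both states. The calls of this peak and of the printed Col6a3 peak in the liver were lost without liver ON 1 (adjusted p = 0.345 and 0.227), and the 7 liver calls fell to 0 without that sample and rose to 20 without liver ON 2.

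The Col7a1 start site (chr9:108952401-108955586) was the only start-site peak called higher in the average. It held 395 and 426 in liver OFF and 870.0 and 714 in liver ON (0.94 ± 0.20, adjusted p = 0.0741), 674, 861 and 900.1 in pancreas OFF and 1381, 1073 and 1173 in pancreas ON, and 892, 671 and 1074 in lung OFF and 1270.2, 1085 and 1008 in lung ON. The groups were apart in liver and pancreas and overlapped in the lungs, and the average was 0.63 ± 0.10, adjusted p = 0.00528. Col5a1 had 4 gains and 1 loss in the average, Col18a1 3 gains and 1 loss, Col27a1 and Col4a6 2 gains each, and Col1a1, Col3a1, Col14a1 and Col25a1 1 gain each.

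In the pancreas the called gain was an intronic Col18a1 peak (chr10:77084519-77084984), from 37.6, 29.5 and 30.6 to 72, 84.2 and 121 (1.45 ± 0.35, adjusted p = 0.0491). The groups were apart, though the call was lost in 5 of the fits that left out 1 sample, each of them a pancreas sample. Losses included peaks of Col5a1, Col15a1 and Col4a3. The intronic Col5a1 peak printed above (chr2:27939191-27940090, 53215 bp from the start site) fell from 339, 518 and 346 to 151, 147 and 122 in the pancreas (-1.49 ± 0.26, adjusted p = 0.015). In the liver it held 955 and 967 against 545 and 644, and in the lungs, where the groups overlapped, 216, 484 and 517 against 292, 365 and 282. This peak differed from the rest of its gene also between organs, being higher in liver than in lungs by 1.34 ± 0.29.

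A peak upstream of Col15a1 (chr4:47161123-47161810) fell from 89.7, 75 and 97.2 to 25.8, 32.2 and 26.8 in the pancreas (-1.59 ± 0.30, adjusted p = 0.0189). The liver held 179 and 202 with Smad4 off and 139.8 and 171 after restoration. The start site of Col4a3 (chr1:82586603-82587494), printed above, fell from 114, 163 and 97.2 to 65.8, 50.8 and 26.8 in the pancreas (-1.42 ± 0.33, adjusted p = 0.0388). It held 223 and 228 against 175 and 167 in the liver and 64.4, 113 and 104 against 43.8, 56.6 and 33.6 in the lungs, neither called (-0.40 and -1.05), with the restored samples below the silenced ones in each organ. An intronic Col4a3 peak (chr1:82598825-82599603) had an averaged difference of -1.07 ± 0.22, adjusted p = 0.0143. Losses were found at 6 genes and gains at 12.

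Fibroblast markers were read in the same samples. Of their 59 peaks 0 were called in any organ by limma, and their summed start-site counts were 519 to 1339 in pancreas ON against 717 to 1249 in pancreas OFF, 105 to 205 against 131 to 175 in the liver and 160 to 183 against 151 to 440.0 in the lungs. Epithelial marker sums did differ in the pancreas, at 15844 to 19458 in pancreas ON against 20828 to 23807 in pancreas OFF samples without overlap. Of 76 epithelial peaks 5 were lower and 0 higher there, none of them at a start site, and their part in the pancreas losses was not tested. Hepatocyte genes had 4 of 49 peaks lower in the pancreas. Of the 262 peaks of collagen-modifying, processing and receptor genes, 4 were lower and 1 higher in the pancreas, 1 lower and 2 higher in the liver, and 0 in the lungs. Over all nuclear peaks 3.06% were lower and 0.364% higher in the pancreas, 0.0886% lower and 0.462% higher in the liver, and 0.00366% called in the lungs.

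The row next to the hairpin cassette was kept out of all counts above. It lies at chr11:94953389-94956222, 347 bp past the end of Col1a1 (94936224 to 94953042), where the homing cassette is placed, and its nearest start site is that of Hils1. Its normalised counts were 1126, 1144 and 1339 in pancreas OFF against 658, 442 and 459.9 in pancreas ON, 1576 and 1268 in liver OFF against 239 and 188 in liver ON, and 758, 739 and 724 in lung OFF against 371, 247 and 293 in lung ON. Every doxycycline-treated sample was above every withdrawn sample of its organ. The log2 differences were -1.23 ± 0.17, adjusted p = 0.00963 in the pancreas, -2.73 ± 0.21, adjusted p = 5.7e-05 in the liver and -1.30 ± 0.17, adjusted p = 0.041 in the lungs.

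**Figure D5:**
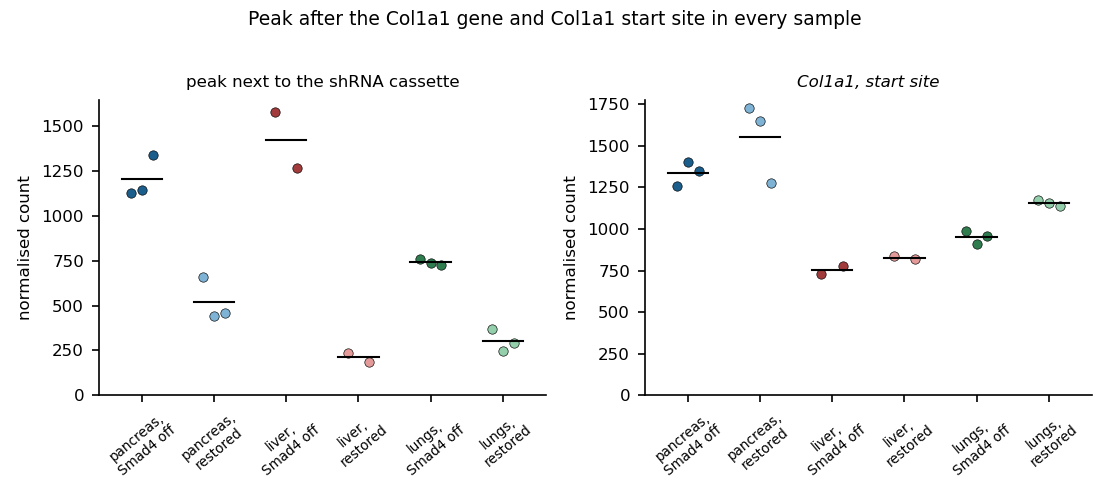
Normalised count of the row next to the hairpin cassette and of the Col1a1 start-site peak in each sample, by organ and Smad4 state, with lines at group means. The cassette row drops in every organ when doxycycline is withdrawn (724 or more in each OFF sample, 658 or less in each ON sample), and the Col1a1 start site carries no call.

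The row followed the labelled drug status in all 16 samples. It reads the cassette locus and not the level of Smad4, whose RNA was not measured here. The Col1a1 start site held 1258, 1403 and 1350.2 in pancreas OFF and 1727, 1648 and 1277 in pancreas ON and was not called in any organ. Differences in the drop between organs were not called over all peaks (-1.50 ± 0.27 for liver minus pancreas and -1.43 ± 0.27 for liver minus lungs, adjusted p = 1.00 and 0.927), with unadjusted values of 3.9e-05 and 6.8e-05 in the same limma fit. The call in the lungs was the least secure of the 3 and was lost without any one of lung ON 2, lung ON 3, lung OFF 2 or a pancreas OFF sample (adjusted p from 0.105 to 0.396).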

How the data were processed

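Bulk ATAC-seq of sorted mKate2+ tumor cells was analyzed in 16 samples, grouped by the organ and Smad4 state in their titles. The column headers name day 15 for all lung samples, Smad4 off and restored alike, and day 14 for all pancreas and liver samples. For restored lungs the labels give 14 days. The deposited table holds a coverage signal for each peak, as normalised read counts. The authors used Trim Galore and cutadapt for trimming, Bowtie2 for alignment to mm10 and MACS2 for peak calls, removed blacklisted regions, joined peaks closer than 500 bp into 1 set for all samples, counted with featureCounts and scaled with DESeq2 size factors. FastQC 0.11.5 is named in the submitters' processing notes. The filter applied to the table, removal of duplicates and any shift of Tn5 cut sites are not given in the sources used here. If duplicates were kept, counting error is larger than it appears. The size factors rest on a stable majority of peaks, while up to 59.4% of peaks were called.

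Every value was a whole multiple of 1 read (100% within 0.01 of a read), which recovered 22994669 to 38218315 reads in peaks per sample. The mitochondrial row (1.43% to 3.56%) was left out. Peaks were assigned to the nearest GENCODE vM21 basic protein-coding start site within 100 kb on mm10. Coordinates are 1-based. RefSeq promoter entries matched 34 of the 43 genes.

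Peaks were tested with limma 3.58.1 (R 4.3.3, trended and robust variance) on log2(normalised count + 1) with 1 mean for each of 6 groups, which understates changes at low counts. Locus sums over 17794 genes were fitted likewise, without the row next to the hairpin cassette. Calls needed a log2 difference of at least 0.58 and a Benjamini-Hochberg adjusted p of at most 0.1 over all peaks or loci, the thresholds of the study. edgeR 4.0.16 and DESeq2 1.42.0 were run on recovered reads as alternatives, beside other scalings, a GC correction, filters, replicate blocks and fits without each sample. Sequence work used Python 3.11.15 and pysam 0.24.0. In data simulated for liver OFF against lung OFF over 20000 peaks, limma called 85% of peaks changed by log2 2, 13% of those changed by log2 1 and 0.111% of unchanged peaks. The simulation held 100 changed peaks of each size beside 19800 unchanged ones, with a common spread for all. In the data 49.7% of peaks were called, so these rates do not measure the power of the real comparison.

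Genes and peaks named in full were the start-site peaks with the 6 greatest called and 3 smallest liver to lung differences, called peaks with the smallest p (up to 3 per direction for liver against lungs, up to 2 per direction for restoration), the start sites of Col1a1, Col1a2 and Col3a1, and the cassette row. Other peaks and genes named were chosen after their values were seen. The members and gene lists were chosen with earlier results of these data known. Replicate numbers were checked for pairing by correlating deviations from group means. Samples of the same number correlated at 0.491, 0.124 and 0.214 in the lungs, at -0.33, 0.027 and -0.33 in the pancreas and at 0.083 in the liver. The labels name no pairing, and unlike numbers were not compared, so pairing in the lungs is not established. Fits with a replicate block are given as alternatives only. One allele of the mice is not reported here.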

Additional observations from a re-analysis of the deposited data

How the results depend on the processing

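Counts of collagen peaks and loci called between organs with Smad4 off leaned the same way and came within 1.5 times of those given under other pseudocounts, filters, scalings, GC correction, edgeR and DESeq2. Some class medians changed sign, FACIT between liver and lungs with quantile normalisation (0.07), and type VI and multiplexin between lungs and pancreas with a pseudocount of 10 (0.0039 and 0.0015), edgeR (0.04 and 0.03) and DESeq2 (0.04 and 0.03). Restricting members to peaks in the gene or within 5 kb left 113 calls between liver and lungs, 170 between liver and pancreas and 70 between lungs and pancreas with Smad4 off, 86, 173 and 104 with Smad4 restored, and 22 in the averaged restoration, because fewer peaks were counted. Restoration counts depended on the fit, and the cause was not tested. In the pancreas the 8 calls became 18 (6 higher, 12 lower) with quantile normalisation and with DESeq2, and 14 with a replicate block in every organ, with or without GC correction. The higher to lower split was 4 to 6 with a pseudocount of 10 and 2 to 5 with edgeR. A block for lung samples alone gave 19 calls in the pancreas (9 higher, 10 lower), 12 in the liver and 0 in lung metastases. With it 7 peaks were called for restoration in lungs minus pancreas (6 higher, 1 lower). With the block in every organ these counts were 3 in the liver and 2 for lungs minus pancreas, and with GC correction 2 and 2. The 7 liver calls became 4 with quantile normalisation, 3 with edgeR and 20 with DESeq2. DESeq2 called 5 in the lungs, and for differences in restoration it called 2 between liver and pancreas and 1 between lungs and pancreas.

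The Col4a3 locus call in the pancreas was lost (0 loci) with edgeR, the block with GC correction, and sums beyond 1000 bp of a start site. The Col28a1 call in the liver was lost (0 loci) with a pseudocount of 10, quantile normalisation, GC correction, both forms of the block in every organ and edgeR, while DESeq2 called 3 loci in the liver and 1 in the lungs. The cassette row lost its lung call with the block in every organ (-1.30) and with GC correction added (-1.28), and kept it with the block in the lungs only.

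Leaving out 1 sample at a time gave 149 to 203, 255 to 292 and 89 to 144 called peaks for liver against lungs, liver against pancreas and lungs against pancreas with Smad4 off, and 61 to 165, 208 to 297 and 120 to 190 with Smad4 restored. For restoration the counts were 2 to 17 in the pancreas, 0 to 20 in the liver, 0 to 0 in the lungs and 14 to 53 averaged, and 0 to 0, 0 to 0 and 0 to 4 for the differences in restoration between liver and lungs, liver and pancreas, and lungs and pancreas. Locus counts were 14 to 20, 22 to 28 and 5 to 13 between organs, and 0 to 1, 0 to 2, 0 to 1 and 0 to 4 for restoration in pancreas, liver, lungs and averaged. The cassette row gave -1.41 to -1.12 in the pancreas, -2.90 to -2.56 in the liver, -1.46 to -1.17 in the lungs and -1.82 to -1.70 averaged. The averaged count of 35 fell to 14 without liver ON 1 and rose to 53 without lung OFF 1, and the pancreas count fell to 2 without pancreas OFF 2 and rose to 17 without lung OFF 1. The count of 132 between lungs and pancreas with Smad4 off fell to 89 in its smallest fit. Leaving out a liver sample leaves 1, which is assumed to vary like the other groups.

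Of 832 values of single named peaks under alternatives, 802 kept direction and side of the threshold, 11 lost and 10 gained a call, and 9 changed sign, all of them at start sites that were never called: Col4a1 (0.036, 0.013 and 0.013, and -0.42 to 0.35 without 1 sample), Col11a2 (0.028, 0.060 and 0.040, range -0.23 to 0.060 without 1 sample) and Col23a1 (-0.18 and -0.18). Groups of 2 or 3 samples limit what restoration could show.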
